A study of Mus musculus with 46 samples.

Results

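The 39 protein-coding genes of the 4 mouse Hox clusters (HoxA, HoxB, HoxC and HoxD) were followed through induced cell fate change in ChIP-Seq peak lists for 2 histone modifications, H3K4me3 and H3K36me3, and for H3.3, a variant of histone H3. Members were taken by symbol (Hoxa, Hoxb, Hoxc or Hoxd followed by a number) from the GENCODE vM1 annotation of the mm9 genome, which gave 39 of 22228 protein-coding genes. HoxA on chromosome 6 holds 11 of them in 105.5 kb, HoxB on chromosome 11 holds 10 in 174 kb, HoxC on chromosome 15 holds 9 in 116 kb and HoxD on chromosome 2 holds 9 in 96.8 kb, 492 kb in all.

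Hox genes encode homeodomain transcription factors that give cells their address along the head-to-tail axis and the limbs. Within each cluster they lie in the order of the body regions they pattern: anterior paralogues act in the hindbrain and neck, central ones in the trunk, and posterior ones in the lumbar and tail region, the distal limb and the urogenital tract. Fibroblasts keep the Hox code of the place they came from, whereas in pluripotent stem cells the clusters are largely silent and held by Polycomb together with H3K4me3. H3K4me3 marks promoters, H3K36me3 marks the bodies of transcribed genes, and H3.3 is the replacement variant of histone H3 that is laid down outside DNA replication, at active genes among other places.

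MEFs (mouse embryonic fibroblasts) with an EGFP cassette at the Oct4 gene were infected with constitutive pMXs retroviruses carrying Sox2, Klf4, Oct4 and c-Myc in feeder-free medium. Libraries came from uninfected cells (D0), unsorted day 3 cells (D3), cells sorted by the fibroblast surface marker Thy-1 on days 6 and 9 (D6T-, D6T+, D9T- and D9T+), cells sorted by the pluripotency surface marker SSEA-1 on days 12 and 16 (D12S+, D12S-, D16S+ and D16S-), induced pluripotent stem cells (iPSCs) and the ESD3 mouse embryonic stem cell line. Thy-1-negative and SSEA-1-positive cells are the fractions on the successful route, and their opposites those on the unsuccessful route. In a separate experiment MEFs (labelled MEF at day 0) received retroviruses with mouse Scl and human Lmo2, Runx1 and Bmi1 (SLBR), and H3.3 was also profiled at day 4 (D4) and in fully transdifferentiated cells with (cKit+) and without (cKit-) the stem cell factor receptor Kit. By the methods, fibroblasts for transdifferentiation were first sorted to remove cells with hematopoietic surface markers. After infection they were grown with inactivated OP9 stromal cells and cytokines.

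Of 46 samples, 30 had a peak list: 16 of H3.3, 7 of H3K4me3 and 7 of H3K36me3, the last 2 marks only in D0, D3, the successful fractions and iPSCs. With a single library for every group, differences have no replicate check, and the closest gauge of library-to-library spread is the pair D0 and MEF, both untreated fibroblasts from different experiments. The methods describe the fibroblast sort for the second experiment only, so cell preparation and library spread cannot be told apart in this pair. Depth was 13.2 to 91.8 M tags, and peaks covered 0.280 to 10.0% of the genome, so each Hox value is set beside the same value over all genes or the whole genome. The lists differed in how much of the genome they called: D4 covered 10.0% and cKit+ and cKit- 0.667% and 0.671%, and the D16S+ H3K4me3 library had 3.71% of its tags in peaks against 9.27 to 34.8% in the other 6. Of 10 fibroblast markers, 10 had an H3.3 peak in D0 and in MEF, 3 in iPSCs and 2 in ESD3. Of 9 annotated pluripotency markers, 2 had one in D0, 9 in iPSCs and 6 in ESD3. Of 9 annotated hematopoietic markers, 3 had one in MEF, 8 in D4, 3 in cKit+, 5 in cKit- and 6 in iPSCs, and Kit itself had no H3.3 peak in cKit+ cells. Of the fibroblast markers, 10 had one in D4, 7 in cKit+ and 5 in cKit-.

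The sequences of HoxB, HoxC and HoxD that carried H3.3 most often are shown first, 1 window of 120 bases for each, taken from the middle of the stretch outside exons that lay under an H3.3 peak in the largest number of libraries. Each is read from mm9 on the strand of the cluster, 5′ to 3′, with CpG dinucleotides in capitals.
HoxB, chr11:96131878-96131997, plus strand: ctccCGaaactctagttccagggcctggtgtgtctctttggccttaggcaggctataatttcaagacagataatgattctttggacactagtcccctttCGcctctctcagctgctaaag
HoxC, chr15:102829203-102829322, plus strand: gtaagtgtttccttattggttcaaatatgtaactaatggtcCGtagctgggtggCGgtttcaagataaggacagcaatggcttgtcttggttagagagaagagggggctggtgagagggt
HoxD, chr2:74547800-74547919, plus strand: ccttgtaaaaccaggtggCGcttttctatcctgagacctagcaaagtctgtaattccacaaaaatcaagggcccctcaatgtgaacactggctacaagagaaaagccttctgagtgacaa

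The HoxB window lay at -834 bp from the start of Hoxb9 and was covered in 10 of 16. The HoxC window lay in an intron of Hoxc6, 574 bp after its start, and was covered in 11 of 16. The HoxD window lay between Hoxd8 and Hoxd3, at -2127 bp from the start of Hoxd3, and was covered in 8 of 16. These windows held 1 or 2 CpG each. H3K4me3 covered the HoxC window in 7 of 7 libraries, the HoxB window in 5 and the HoxD window in 2. H3K36me3 covered none of them in any of 7 libraries.

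Windows under H3K4me3 in all 7 libraries were chosen in the same way, and those of HoxA and HoxC are shown because they differed most in how often H3.3 covered them.
HoxA, chr6:52203212-52203331, minus strand: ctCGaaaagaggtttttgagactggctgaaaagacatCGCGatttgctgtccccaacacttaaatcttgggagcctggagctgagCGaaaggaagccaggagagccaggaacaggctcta
HoxC, chr15:102829783-102829902, plus strand: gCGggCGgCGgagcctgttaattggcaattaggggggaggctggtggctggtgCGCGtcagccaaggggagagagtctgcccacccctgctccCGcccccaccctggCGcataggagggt

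The HoxA window lay at -7058 bp from the start of Hoxa11 and held 4 CpG. It was under an H3.3 peak in 0 of 16 libraries. The HoxC window lay in the same Hoxc6 intron as the H3.3 window above, 1154 bp after the start of the gene, and held 7 CpG. It was under an H3.3 peak in 6 of 16 libraries, D6T-, D6T+, D9T-, D9T+, D12S- and D4. The corresponding windows of HoxB, inside Hoxb4, and of HoxD, at -383 bp from the start of Hoxd1, held 0 and 1 CpG and were under H3.3 in 2 and 1 of 16 libraries.

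H3.3 covered the Hox clusters more densely than the genome in 15 of 16 libraries, and HoxA was the most densely covered cluster in 14 of 16, with HoxC ahead in D6T+ and D9T+. H3.3 peaks lay over 12.5% of the length of the 4 clusters in D0 and 8.89% at day 3, then over 17.3% for D6T- and 15.9% for D9T-, 4.61% for D12S+ and 2.60% for D16S+, and over 4.24% in iPSCs and 4.62% in ESD3. Relative to the share of the genome under peaks in the same library, these were 2.56, 2.90, 3.62, 4.41, 2.69, 2.36, 1.06 and 2.54 times as much. The iPSC library stood nearest to its genome share among the reprogramming libraries, and cKit-, at 0.685 times, was the library below it. With as many top peaks per library as the smallest list had, cover was above the genome share in 14 of 16 libraries, iPSCs falling to 0.595 times. With peaks at or above the median score it was in 13, iPSCs falling to 0.663 and D16S+ to 0.922 times, and with peaks at least 4-fold over input in 13, D4 falling to 0.305 times and neither cKit fraction keeping a Hox peak. HoxA cover was 19.2% in D0, where HoxD had 5.72%, and reached 37.5% in D6T- (HoxD 8.88%), 31.2% in D9T- (8.70%), 43.4% in D12S- (20.1%) and 75.0% in D4 (27.2%).

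**Figure D1:**
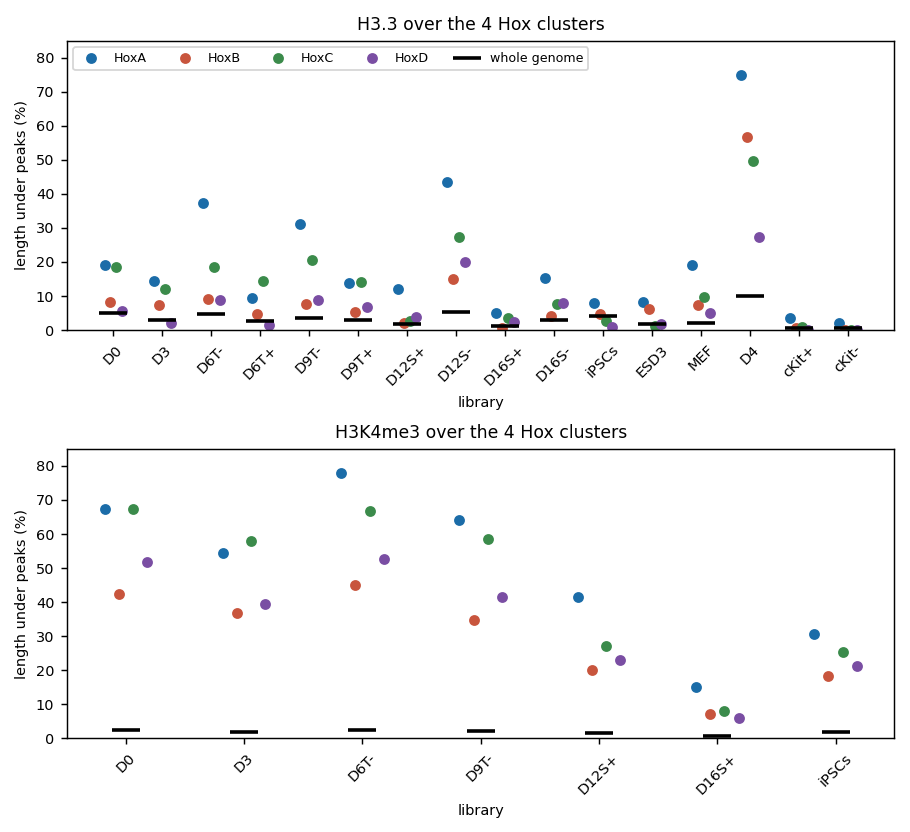
Share of each Hox cluster's length under peaks (percent, vertical axis) in the 16 H3.3 libraries (top) and the 7 H3K4me3 libraries (bottom), 1 point per cluster and library, with a black bar for the share of the whole genome. HoxA was the highest point in 14 of 16 H3.3 libraries, reaching 75.0% in D4, and all 4 clusters lay above the genome bar in all 7 H3K4me3 libraries.

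Counted by gene, the members were not enriched for H3.3 in D0 or D3 when whole gene bodies were used. An H3.3 peak overlapped 16 of 39 Hox genes in D0 (41.0%, 95% Wilson interval 27.1 to 56.6%), against 58% of all protein-coding genes, and 15 in D3 (38.5%) against 53.5%. In MEF the Hox share was 61.5% (interval 45.9 to 75.1%). That was above the share of all genes, given further below, which lay within the interval. Hox genes are short, with a median length of 4.06 kb against 15.5 kb for all protein-coding genes, so a window of equal length from 1000 bp upstream to 100 bp downstream of each gene start was counted too. In that window 16 of 39 Hox genes had a peak in D0, against 33.8% of all genes, and the interval includes the background. The counts were 12 in D3 (30.8%, against 25.1%), 16 in D6T- (41.0%, against 32.9%) and 14 in D9T- (35.9%, against 33%), and 6 in D12S+ (15.4%, against 23.6%) and 7 in D16S+ (17.9%, against 18.1%). The background lay within the interval of each of these 5. Intervals cover counting error only, and neighbouring members share peaks.

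**Figure D2:**
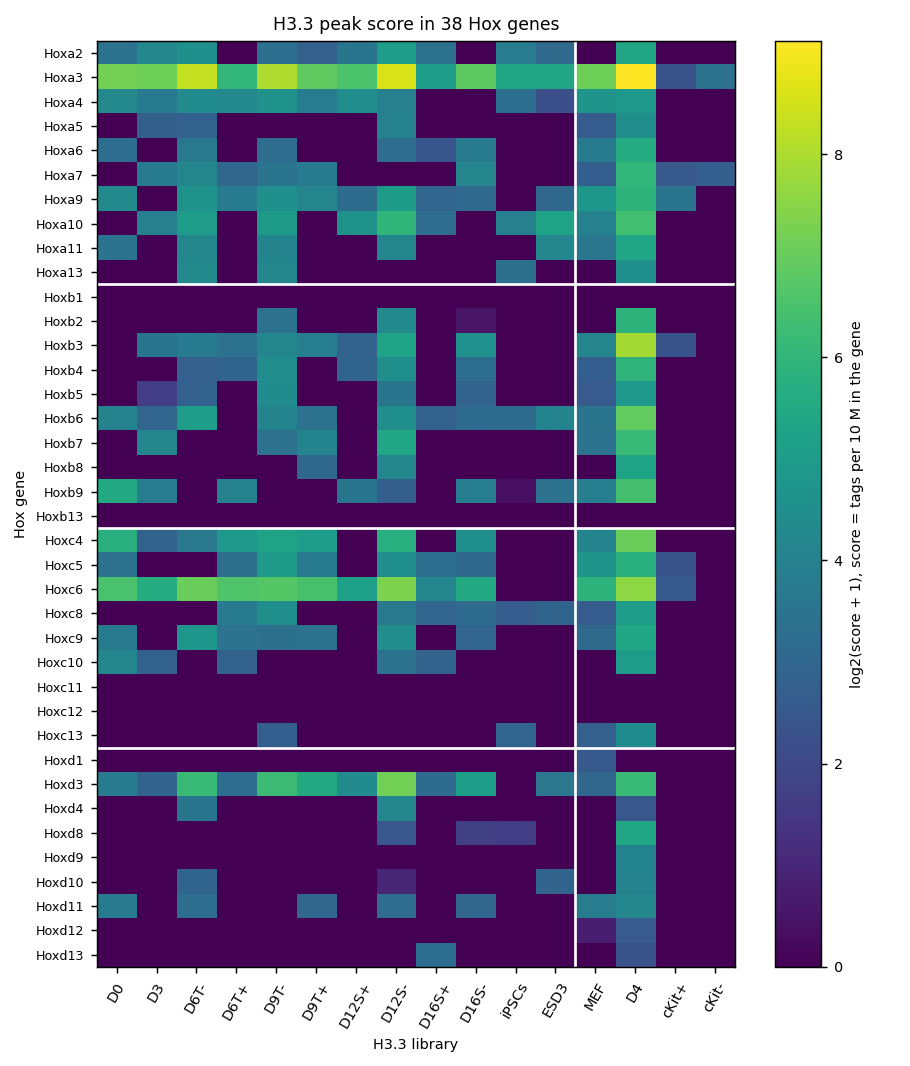
Heat map of the H3.3 score of 38 Hox genes (rows, cluster by cluster from anterior to posterior) in the 16 H3.3 libraries (columns, the 4 transdifferentiation libraries after the white line), as log2 of the score plus 1, where the score is the number of tags in the overlapping part of peaks per 10 M tags. Hoxa3 is above 0 in all 16 columns and Hoxb1, Hoxb13, Hoxc11 and Hoxc12 are at 0 in all 16, while D4 is the column with the most genes above 0 (33 of the 38 drawn).

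The members differed widely in how often they carried H3.3. Hoxa3, which acts in the pharyngeal arches, had a peak in 16 of 16 libraries, and Hoxa9, Hoxc6 and Hoxd3 had one in 13. Hoxb1, a hindbrain gene, Hoxb13, the most posterior gene of HoxB, and Hoxc11 and Hoxc12 had none in any of the 16. Hoxd1 and Hoxd9 had a peak in 1 library each. Gene length differed too. Hoxa3, Hoxd3 and Hoxc6 span 49.98, 36.3 and 13.6 kb, and the genes without a peak 1.85 to 3.28 kb. Hoxa4, at 2.08 kb, had a peak in 12 of 16. The part of gene length in these counts was not tested. By base, 176 kb of the 492 kb (35.7%) lay under H3.3 in 0 of 16 libraries, and the most widely shared stretch, 0.213 kb, in 13.

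Hoxa3, joined here from gene records that carry the same symbol, spans 49.98 kb and contains Hoxa4, Hoxa5 and Hoxa6. Its summed score is thus that of a large part of HoxA. The score, in tags per 10 M within the overlapped part of peaks, was 148 in D0 and 137 in D3, 321 in D6T- and 263 in D9T-, then 90.9 in D12S+ and 32.4 in D16S+, with 39.7 in iPSCs and 43.3 in ESD3. The unsuccessful fractions D6T+ and D9T+ scored 62.7 and 118, and D12S- and D16S- scored 390.5 and 113. In transdifferentiation it was 137 in MEF, 554 in D4, 4.03 in cKit+ and 9.69 in cKit-. Hoxa3 was thus alike in the 2 untreated fibroblast libraries, and the pluripotent libraries iPSCs and ESD3 lay below both.

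Hoxc6, a thoracic gene and the leading member of HoxC, scored 88.6 in D0 and 48.5 in D3, 129 in D6T- and 104 in D9T-, then 34.4 in D12S+ and 17.6 in D16S+, and 0 in both iPSCs and ESD3. The D6T+ and D9T+ scores were 95.6 and 86.7, and those of D12S- and D16S- were 163 and 46.3. It scored 57.9 in MEF, 188 in D4, 5.01 in cKit+ and 0 in cKit-. Hoxc6 was therefore marked in every reprogramming library before iPSCs and in neither pluripotent one. Hoxc13, a gene of hair and nails, led HoxC in iPSCs with 6.92 and was otherwise above 0 only in D9T- (5.56), MEF (6) and D4 (20.6).

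In HoxD the leading gene by mean summed score was Hoxd3, which patterns the neck vertebrae. It spans 36.3 kb and contains Hoxd4, so its summed score also takes in peaks at and before Hoxd4. Hoxd3 scored 12.4 in D0 and 6.39 in D3, 69.2 in D6T- and 75.2 in D9T-, then 20.2 in D12S+ and 8 in D16S+, with 0 in iPSCs and 11.1 in ESD3. The D6T+ and D9T+ scores were 8.61 and 45.5, those of D12S- and D16S- were 143 and 32.8, and in transdifferentiation Hoxd3 scored 7.08 in MEF, 69.9 in D4 and 0 in both cKit fractions. Its highest value was thus in D12S- and not in D4, unlike the other leading genes. The part of the span after Hoxd4 scored less by itself, with 58.6 for D12S-, 32.8 for D9T- and 24.7 for D4. It scored 0 for D16S- and kept the full 12.4 of D0. Hoxd4 with the sequence before it scored more than that part in D12S- (84.4) and D9T- (42.4). In D6T- the order was the other way, 27.0 against 42.2. Hoxd11, a forelimb gene and the highest of HoxD in D0, scored 12.98 there and 13.6 in MEF, 8.76 in D6T- and 7.12 in D9T+, 8.65 in D12S- and 7.07 in D16S-, and 17.6 in D4, and 0 in the other 9 libraries. Hoxd8, the highest of HoxD in iPSCs, scored 2.15 there, 4.52 in D12S-, 2.34 in D16S- and 43.3 in D4, with 0 elsewhere.

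The HoxB genes Hoxb9 and Hoxb3 differed between the 2 untreated fibroblast libraries. Cover of the whole HoxB cluster was closer, 8.37% in D0 and 7.27% in MEF, whereas HoxC cover was 18.5 and 9.76%. Hoxb9, a thoracic gene, scored 46 in D0 and 13.9 in MEF. Across the others it scored 13.6 in D3, 10.7 in D12S+, 9.71 in ESD3, 15.1 in D6T+, 5.85 in D12S-, 13.9 in D16S-, 85.5 in D4 and 0.297 in iPSCs, and 0 in D6T-, D9T-, D16S+, D9T+, cKit+ and cKit-. Hoxb3, which acts in the hindbrain, scored 0 in D0 and 16.6 in MEF, with 10.8 in D3, 12.5 and 9.78 in D6T- and D6T+, 17.2 and 14 in D9T- and D9T+, 6.44 and 37.7 in D12S+ and D12S-, 23.2 in D16S-, 236 in D4 and 4.14 in cKit+. It was 0 in D16S+, iPSCs, ESD3 and cKit-. Hoxb6, the leading HoxB gene of iPSCs, scored 8.38 there and 16.2 in ESD3, 15.8 in D0, 10.4 in MEF, 6.77 in D3, 33.1 in D6T-, 16.2 and 9.57 in D9T- and D9T+, 22.3 in D12S-, 6.13 and 8.05 in D16S+ and D16S-, and 121 in D4. It was 0 in D12S+, D6T+ and both cKit fractions, so that Hoxb6, unlike Hoxc6, was marked in both pluripotent libraries.

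Per kb of gene, the scale on which genes of unequal length can be compared, the order changed. In D0 the highest H3.3 scores per kb were those of Hoxa4 (9.00), Hoxb9 (8.95), Hoxc6 (6.50) and Hoxc10 (3.49), and in iPSCs those of Hoxa4 (4.38), Hoxa2 (4.36) and Hoxa13 (2.94).

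The comparison of fibroblasts with pluripotent cells asked what became of the Hox clusters once a new identity was reached. H3.3 was found on 10 of 39 Hox genes in iPSCs (25.6%, interval 14.6 to 41.1%) against 57.2% of all genes, and on 11 in ESD3 (28.2%) against 47.1%. In the start window the counts were 7 in iPSCs (17.9%, interval 8.98 to 32.7%) against 39% of all genes and 6 in ESD3 (15.4%) against 18.3%. The interval of iPSCs thus lay below the genome's share by either rule, whereas ESD3 was near its background in the start window. In the untreated fibroblasts of the second experiment, MEF, 24 Hox genes had a peak (61.5%) against 48.5% of all genes, so by gene body the gap between the 2 fibroblast libraries (16 and 24) was wider than that between D0 and iPSCs (16 and 10). In the start window it was narrower, with 16 in D0, 14 in MEF (against 26.5%) and 7 in iPSCs.

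From D0 to iPSCs, 21 Hox genes had an H3.3 peak in either library, and the score was at least 2-fold lower in iPSCs for 14 of them (66.7%, against 41.4% of all genes with a peak in either) and at least 2-fold higher for 5 (23.8%, against 26.1%). With MEF as the fibroblast library, 20 of 27 were lower (74.1%, against 21.8%) and 3 higher (11.1%, against 53.4%). From D0 to ESD3, 12 of 19 were lower (63.2%, against 63.5%) and 3 higher (15.8%, against 15.9%), which is the background. More Hox genes were lower than higher in all 3 comparisons, which share libraries. An excess over all genes was seen from either fibroblast library to iPSCs and not from D0 to ESD3. MEF was not set against ESD3. Between D0 and MEF themselves, 12 of 27 Hox genes were at least 2-fold higher in MEF (44.4%, against 8.17% of all genes) and 5 were lower (18.5%, against 66.2%).

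Base by base, D0 and MEF shared 25.9 kb of Hox sequence under H3.3, 41.9% of the D0 bases and 52.6% of the MEF bases. D0 and iPSCs shared 6.74 kb, 10.9% of the D0 bases and 32.3% of the iPSC bases. The pluripotent pair iPSCs and ESD3 shared 5.79 kb, 27.8 and 25.5% of their bases. The overlap of D0 with iPSCs was thus below the overlap of the 2 fibroblast libraries by both shares. These shares also depend on how much of the clusters each library covered, 12.5% in D0, 9.98% in MEF, 4.24% in iPSCs and 4.62% in ESD3.

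The position of H3.3 within the clusters differed between fibroblasts and pluripotent cells. Members were split into anterior (paralogues 1 to 3, 8 genes), central (4 to 8, 15 genes) and posterior (9 to 13, 16 genes), each with its territory, the gene and the sequence upstream to the next member, at most 10 kb. H3.3 covered 14.1% of anterior, 16.9% of central and 10.3% of posterior territory in D0, and 10.1, 12.9 and 8.76% in MEF. The clusters differed: HoxA had 37.4, 12.7 and 8.71% in D0, whereas HoxB ran the other way with 2.15, 8.45 and 35.4% in D0 and 2.99, 8.44 and 16.3% in MEF. With all clusters pooled, H3.3 covered 4.06, 2.45 and 3.95% in iPSCs and 4.25, 2.41 and 5.90% in ESD3. Over the 4 clusters together, central territory was covered more than posterior in 14 of 16 H3.3 libraries, all but iPSCs and ESD3, and anterior more than posterior in 15 of 16, all but ESD3. With peaks limited to at least 4-fold over input, these counts fell to 10 and 8 of 16, with posterior above anterior in 5. At that setting cKit+ and cKit- kept 71 and 145 peaks in the whole genome and none in the clusters, so they could show neither order. MEF kept 0.5 kb in the clusters.

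In the pluripotent libraries a larger share of H3.3 lay between genes than in the fibroblast libraries. Of the Hox bases under H3.3, 57.7% in iPSCs and 50.4% in ESD3 were between members, against 44.1% in D0, 33.8% in MEF and 43.4% of the clusters as a whole. The stretch between Hoxb13 and Hoxb9, 74.0 kb, held 6.69 kb of H3.3 peaks in iPSCs and 6.18 kb in ESD3, close to the 6.24 kb of D0 and the 6.31 kb of MEF.

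**Figure D3:**
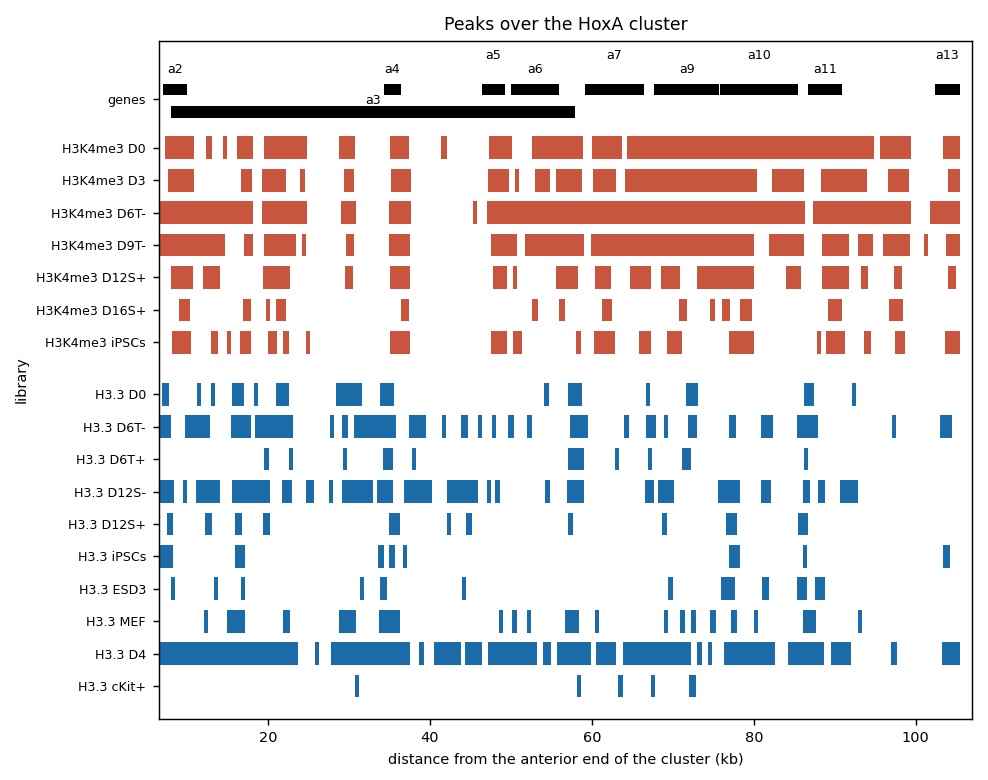
Peaks of H3K4me3 (red, 7 libraries) and H3.3 (blue, 10 of the 16 libraries) over the HoxA cluster, drawn as blocks against distance from the anterior end in kb from just before Hoxa2 on, with 10 genes as black bars on top. The H3K4me3 block over Hoxa7 to Hoxa11 in D0 is 30.5 kb long and is replaced by separate short blocks in iPSCs, while H3.3 blocks cover 19.2% of the whole cluster in D0, 43.4% in D12S- and 75.0% in D4.

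The sorted fractions asked whether cells on the successful and unsuccessful routes differed at the Hox clusters, and the direction turned between the Thy-1 days and the SSEA-1 days. On day 6, 22 Hox genes had an H3.3 peak in D6T- (56.4%, against 57.1% of all genes) and 14 in D6T+ (35.9%, against 48.5%). On day 9 there were 22 in D9T- (56.4%, against 53.9%) and 16 in D9T+ (41.0%, against 50.3%). On day 12 there were 11 in D12S+ (28.2%, against 45.4%) and 28 in D12S- (71.8%, against 59.8%), and on day 16 there were 12 in D16S+ (30.8%, against 37.5%) and 19 in D16S- (48.7%, against 52.1%). The successful fraction was ahead on both Thy-1 days and behind on both SSEA-1 days. The successful minus unsuccessful difference was 8, 6, -17 and -7 genes, with a mean of -2.5 (p = 0.75 by an exact permutation test that flips signs over the 4 days, two-sided). The smallest p that 4 days allow is 0.125, so the design could not reach 0.05.

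In the start window the counts were 11 in D6T+ (28.2%, against 22.2%), 9 in D9T+ (23.1%, against 27.1%) and 14 in D16S- (35.9%, against 31.5%). The genome-wide list moved the same way: peaks covered 4.80% of the genome in D6T- and 2.63% in D6T+, but 1.71% in D12S+ and 5.30% in D12S-. The part of list size in the Hox difference was not tested. Hox scores at least 2-fold higher in D6T- than in D6T+ were found for 16 of 26 members with a peak in either (61.5%, against 51% of all genes). On day 9, 11 of 25 were higher in D9T- (44.0%, against 29.4%). On day 12, 26 of 28 were lower in D12S+ than in D12S- (92.9%, against 76.9%) and 0 were higher, against 4.59%. On day 16, 15 of 23 were lower in D16S+ (65.2%, against 69.1%), a share near the background.

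D12S- was the reprogramming library with the most Hox H3.3. It covered 24.9% of the clusters, 4.71 times its genome share, and in the start window 25 of 39 Hox genes (64.1%, interval 48.4 to 77.3%) had a peak against 40.8% of all genes. It covered 37.3% of central territory, 32.2% of anterior and 14.9% of posterior. Of the Hox bases under H3.3 in D12S+, 84.8% were also under H3.3 in D12S-, and of those in D9T-, 73.4% were. Of the bases in D16S+, 29.3% were in D16S-. In bulk fractions, fewer cells carrying H3.3 at a site and less H3.3 per cell cannot be told apart.

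From D0 to D3, before any sort, 11 of 22 Hox genes with a peak in either were at least 2-fold lower (50.0%, against 39.3% of all genes) and 6 were higher (27.3%, against 12%). The Hox count was 16 in D0 and 15 in D3, with 9 genes in both. From D9T- to D12S+, 19 of 24 were lower (79.2%, against 57.5%) and 2 were higher (8.33%, against 10.2%).

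In transdifferentiation the clusters were covered most at day 4. In D4, 34 of 39 Hox genes had an H3.3 peak (87.2%, interval 73.3 to 94.4%) against 70.1% of all genes, and 34 in the start window against 58.1%. The 5 without one were Hoxb1, Hoxb13, Hoxc11, Hoxc12 and Hoxd1. Peaks covered 53.2% of the clusters, 5.29 times the genome share of that library, with 75.0% of HoxA, 56.6% of HoxB, 49.8% of HoxC and 27.2% of HoxD. With peaks at least 4-fold over input D4 had 2 Hox genes and 2.48 kb, 0.305 times its genome share, so nearly all of this cover came from peaks under 4-fold. Central territory was 74.2% covered, anterior 57.1% and posterior 41.5%. Of the Hox bases under H3.3 in MEF, 92.1% were under H3.3 in D4, as were 92.6% of those in D0.

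The rise from MEF to D4 was that of the library as a whole: 32 of 35 Hox genes with a peak in either were at least 2-fold higher in D4 (91.4%) against 91.1% of all genes, with a median log2 change of 2.43 over the 23 in both against 2.34 over all genes in both. Relative to the genome, cluster cover was 4.63 times the genome share in MEF and 5.29 times in D4. With peaks at least 4-fold over input the order turned, to 2.17 times in MEF, which rested on 0.5 kb, and 0.305 times in D4. In cKit+ cells 6 Hox genes had a peak (15.4%, against 29.8%), and in cKit- cells 2 (5.13%, against 27.9%), with 3 (against 5.13%) and 1 (against 6.78%) in the start window. The 6 in cKit+ were Hoxa3, Hoxa7, Hoxa9, Hoxb3, Hoxc5 and Hoxc6, with Hoxa9, a regulator of hematopoietic stem cells, the highest at 10.3, and the 2 in cKit- were Hoxa3 and Hoxa7. Hoxa9 scored more in the fibroblasts, 27.6 in MEF and 19.7 in D0, and 58.2 in D4. From D4 to cKit+ 34 of 34 were at least 2-fold lower, against 98.1% of all genes.

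H3K4me3 covered the Hox clusters far more widely than H3.3, and the loss of it was broad. In D0, 38 of 39 Hox genes had an H3K4me3 peak (97.4%, interval 86.8 to 99.5%) against 69.4% of all genes, Hoxb1 being the exception. All 39 had one in D3 (against 67.4%) and D6T- (against 68.9%), 38 in D9T- (against 67.7%) and D12S+ (against 65%), 25 in D16S+ (64.1%, against 48.7%) and 36 in iPSCs (92.3%, against 68.1%). In the start window 36 had one in D0 (against 62.7%), 35 in D3 (against 61.2%), 36 in D6T- (against 62.2%), 34 in D9T- (against 61.1%) and 31 in D12S+ (against 57.8%). The start window of D16S+ held 17 (43.6%, against 34.1%) and that of iPSCs 25 (64.1%, interval 48.4 to 77.3%, against 60.3%), the only 2 libraries in which the interval included the background. By gene body 36 of 39 members thus had a peak at the end of reprogramming, and the length and score of peaks differed more. Peaks lay over 55.5% of the clusters in D0 and 46.1% at day 3, 58.7% for D6T- and 48.0% for D9T-, 26.9% for D12S+ and 8.80% for D16S+, and 23.1% in iPSCs, which was 21.7, 24.0, 22.8, 22.6, 17.7, 13.1 and 11.6 times the genome share of each library. The D16S+ values rest on the library with the fewest tags in peaks, and D12S+ and iPSCs were below the 4 earlier libraries without it.

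Hox H3K4me3 peaks were the longest of the genome in the early libraries. A single peak of 30.5 kb over Hoxa7, Hoxa9, Hoxa10 and Hoxa11 was the longest of 41015 peaks in D0, and a peak of 26.6 kb over Hoxc9 and Hoxc10 came next. The longest peak of the genome was also in HoxA in D3 (16.3 kb), in D6T- (39.2 kb, reaching from Hoxa5 to Hoxa10) and in D9T- (20.2 kb). The longest HoxA peak ranked 82 in D12S+ at 7.11 kb, 2169 in D16S+ at 1.72 kb and 3526 of 36122 in iPSCs at 3.00 kb. Of the 100 longest H3K4me3 peaks, 4 lay in Hox clusters in D0 and 3 in D3, 7 in D6T- and 4 in D9T-, 1 in D12S+ and 0 in D16S+ and iPSCs. No H3.3 or H3K36me3 library had any of its 100 longest peaks there.

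**Figure D4:**
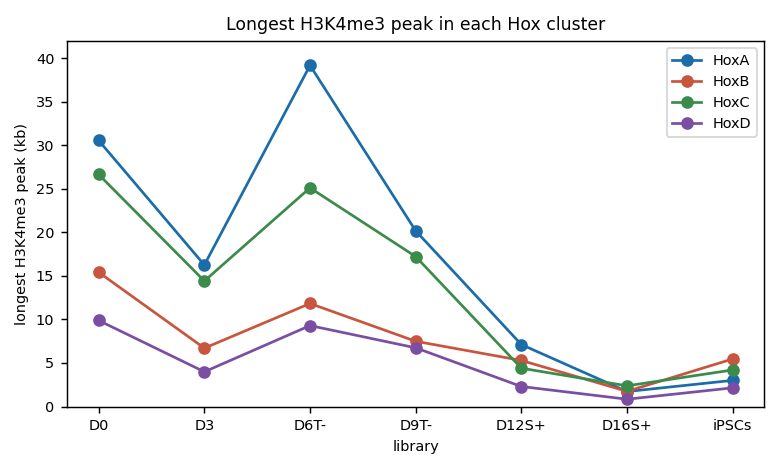
Length in kb of the longest H3K4me3 peak in each Hox cluster (vertical axis) in the 7 libraries from D0 to iPSCs (horizontal axis), 1 line per cluster. HoxA was the longest from D0 (30.5 kb) to D12S+ (7.11 kb), and in iPSCs the 4 clusters lay between 2.15 and 5.46 kb.

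Between D0 and iPSCs, the H3K4me3 score was at least 2-fold lower in iPSCs for 32 of the 38 Hox genes with a peak in either (84.2%, against 67.2% of all genes) and at least 2-fold higher for 0 (against 5.78%). The median log2 change was -1.75 over the 36 Hox genes with a peak in both and -1.33 over all genes with a peak in both, and 36 of 36 were lower. Hoxb2, a hindbrain gene that scored 145 in D0, and Hoxd12, which scored 37.9, had no peak in iPSCs. The step from D9T- to D12S+ was of the same kind as in the genome, with 30 of 39 lower (76.9%, against 74.9%), and D0 to D6T- moved 2 of 39 up (5.13%, against 7.23%) and 0 down (against 8.33%). From D0 to D3, 4 of 39 were lower (10.3%, against 11.7%).

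The largest differences in score lay in HoxA. Hoxa10, which patterns the lumbar region and the uterus, scored 490.5 in D0 and 307 in D3, 540.1 in D6T- and 359.6 in D9T-, 127 in D12S+ and 49.1 in D16S+, and 43.9 in iPSCs, 11.2-fold lower than in D0. Hoxa9 scored 406, 342, 447, 370.2, 118, 27.9 and 32.9 in the same libraries, 12.3-fold lower at the end. Both stayed high through D9T- and were lowest in D16S+ or iPSCs. Hoxa3 scored 849, 621, 1407, 901, 292, 112 and 249, 3.41-fold lower in iPSCs. Per kb of gene Hoxa9, Hoxa10 and Hoxa11 had the same value in D0, 50.8, since the same 30.5 kb peak covered all of each, and they were the highest of the 39.

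The smallest differences lay in HoxC and at Hoxb1. Hoxc12, the shortest member, scored 25.1 in D0 and 20.5 in D3, 20.6 in D6T- and 20.01 in D9T-, 5.02 in D12S+ and 0 in D16S+, and 22.3 in iPSCs, 1.12-fold lower than in D0. The direction turned when the whole score of each overlapping peak was used, with 34.4 in D0 and 77.3 in iPSCs. Hoxc13 scored 65.0, 46.4, 39.6, 40.4, 17.7, 0 and 63.6, 1.02-fold lower, so both Hoxc12 and Hoxc13 dipped in D12S+ and D16S+ and had near the D0 score in iPSCs. Hoxb1 scored 0 in D0, 20.4 in D3, 19.2 in D6T-, 7.15 in D12S+ and 0 in D9T-, D16S+ and iPSCs.

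**Figure D5:**
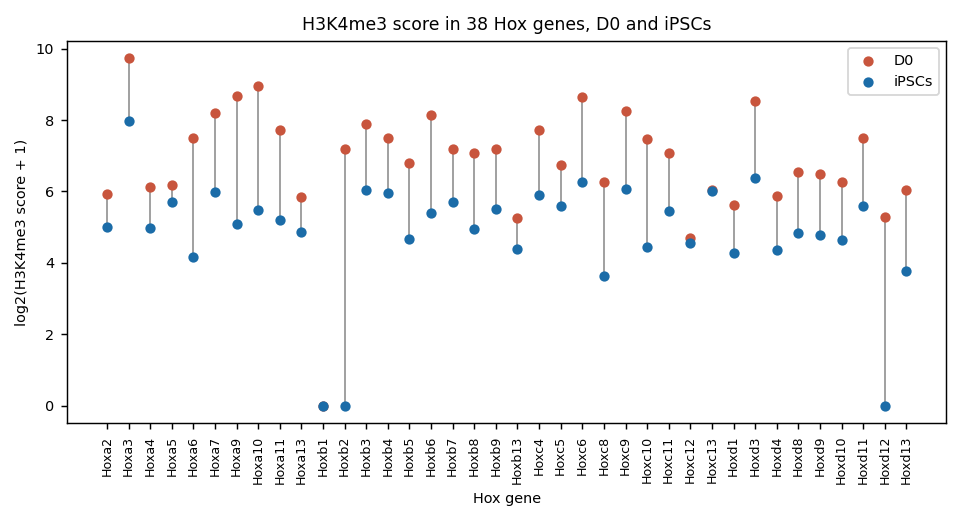
H3K4me3 score of 38 Hox genes (horizontal axis, anterior to posterior in each cluster) in D0 (red) and iPSCs (blue), as log2 of the score plus 1, joined by a grey line. The D0 point was higher for 37 of the 38 genes drawn, by the most where iPSCs were at 0 (Hoxb2 and Hoxd12), then at Hoxa9 and Hoxa10, and Hoxb1 was at 0 in both.

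With all clusters pooled, H3K4me3 covered 40.2% of anterior, 64.3% of central and 76.2% of posterior territory in D0. In iPSCs the shares were 18.6, 24.8 and 28.7%, and pooled posterior territory was above anterior in 7 of 7 libraries. This order was not general to the clusters. In HoxB alone, anterior territory was above posterior in D3, D6T-, D9T-, D12S+ and D16S+, and below it in D0 and iPSCs. In D16S+ the territories of Hoxb9 and Hoxb13 held 0 kb, and those of Hoxb2 and Hoxb3 held 2.24 and 2.13 kb. HoxC has no anterior member and enters only the central and posterior pools. Pooled central territory was above posterior in D9T- (61.6 and 54.6%) and D12S+ (33.9 and 28.4%). Within HoxB it was also above posterior in D0 (78.5 and 58.1%). With peaks limited to at least 8-fold over input, pooled posterior territory was above anterior in 5 of 7 libraries and central above posterior in 4.

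The H3K4me3 that iPSCs kept was at CpG-dense sequence. Of the 273 kb of D0 bases, 105 kb (38.3%) were also under H3K4me3 in iPSCs, and these made up 91.9% of the iPSC bases. The kept bases held 55.0 CpG per kb and the lost ones 22.3, against 24.4 over the clusters and 9.28 in bases under H3K4me3 in no library. Bases under H3K4me3 in all 7 libraries, 23.4 kb, held 57.1 CpG per kb. Without the D16S+ library, 77.9 kb were shared by the other 6. Bases under H3.3 were not as CpG-rich: 20.5 per kb in D0, 24.2 in iPSCs and 29.2 in D4.

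A larger share of H3.3 bases lay under H3K4me3 in the Hox clusters than over the genome, but H3K4me3 also covered far more of the clusters. In D0, 74.7% of the Hox bases under H3.3 were also under H3K4me3, against 20.2% over the genome, while 55.5% of the clusters were under H3K4me3. For D3 the share was 49.5% (genome 14.2%), for D6T- 68.3% (21.5%), for D9T- 64.9% (22.5%), for D12S+ 56.0% (20.9%), for D16S+ 16.9% (11.5%) and for iPSCs 45.1% (22.5%). Set against the share of the clusters under H3K4me3, the Hox share was higher in all 7 cell populations, narrowly in D3 (49.5 against 46.1%) and more widely in iPSCs (45.1 against 23.1%). Over the genome H3K4me3 covered 2.56% in D0 and 1.99% in iPSCs. The genome shares of 20.2 and 22.5% thus lay further above cover, in proportion, than the Hox shares. In the reverse direction 16.9% of the Hox H3K4me3 bases were under H3.3 in D0 and 8.27% in iPSCs.

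H3K36me3, the mark of transcribed bodies, was sparse on Hox genes, with HoxA in D0 the main exception by length covered. In D0, 7 of 39 had a peak (17.9%, interval 8.98 to 32.7%) against 48.2% of all genes: Hoxa2, Hoxa3, Hoxa5, Hoxa6, Hoxa10, Hoxc6 and Hoxd3, so that 5 of the 7 were in HoxA. D3 had 4 (against 43.1%), D6T- 0 (against 37.4%), D9T- 5 (against 49%), D12S+ 1 (against 22.7%), D16S+ 0 (against 25%) and iPSCs 1, Hoxa13 (against 33.6%). Start windows held 1 in D0 (against 2.47%) and D9T- (against 2.62%) and 0 in D3 (against 1.4%), D6T- (against 0.976%), D12S+ (against 0.193%), D16S+ (against 0.261%) and iPSCs (against 0.931%). Peaks covered 14.1 kb of the clusters in D0, 0.494 times the genome share, and 11.7 kb in D9T-. In D0 HoxA stood above the genome share, at 1.51 times, with HoxB at 0.301, HoxC at 0.0748 and HoxD at 0.234 times. The other cluster above its genome share was HoxD in D12S+, from 1 peak of 0.5 kb. By gene body the Hox share was below the background in all 7 libraries, of which D12S+, D16S+ and iPSCs had 1.07 to 2.88% of their tags in peaks. Hox genes are shorter than most, and the part of gene length in these shares was not tested.

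Hoxa3, over its joined span, scored 122.5 for H3K36me3 in D0, 22.9 in D3 and 46.7 in D9T-. Its own territory scored 14.7 in D0 and 0 in D3 and D9T-, so the span's score lay mostly at other members. Hoxa6 scored 29.4, 6.42 and 22.8 in those libraries and Hoxa5 28.8, 6.64 and 7.37, and the 3 genes were at 0 in the other 4 libraries. Hoxa5 and Hoxa6 lie inside the joined span of Hoxa3 and share 1 peak of 3.07 kb in D0. In D9T- the highest were Hoxd3 with 83.95 and Hoxd4, inside it, with 54.7. From D0 to iPSCs, 7 of 8 Hox genes with a peak in either were lower, against 87.6% of all genes.

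The microRNA genes that lie within the clusters are shown because they share the clusters' chromatin, and miR-196 is known to act on Hox transcripts. Mature sequences are from RefSeq (GRCm38.p6), with the seed, bases 2 to 8, in capitals.
miR-10a-5p, HoxB: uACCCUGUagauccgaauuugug
miR-10b-5p, HoxD: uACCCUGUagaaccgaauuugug
miR-196a-5p, HoxB and HoxC: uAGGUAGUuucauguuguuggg
miR-196b-5p, HoxA: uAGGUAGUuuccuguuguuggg
miR-615-5p, HoxC: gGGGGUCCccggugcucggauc

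miR-10a-5p and miR-10b-5p share 1 seed and the miR-196 forms another. Mir615, inside HoxC, was under H3K4me3 in 7 of 7 libraries and under H3.3 in 3 of 16 (D9T-, MEF and D4). Mir196b was under H3K4me3 in 6 of 7, all but iPSCs, and under H3.3 in MEF and D4. Mir196a-2 was under H3K4me3 in D0, D3, D6T- and D9T- and not after, and under H3.3 in no library. Mir10a was under H3K4me3 in D6T-, D9T- and D12S+, while Mir196a-1 and Mir10b were under it in none.

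Genes that act with the Hox proteins or lie beside the clusters were counted by gene body too, with no test against the members. Of 9 cofactors (the Pbx, Meis and Pknox genes, whose proteins bind DNA with Hox proteins), 9 had an H3.3 peak in D0 and 8 in iPSCs, with 6 to 9 over the 16 libraries. Of 6 ParaHox and Cdx genes, relatives and upstream regulators of the Hox genes, 1 had an H3.3 peak in D0 (Cdx1) and 3 in both iPSCs and ESD3 (Pdx1, Cdx1 and Cdx2). Of 10 cluster neighbours, 7 had one in D0, 3 in MEF, 6 in iPSCs and 8 in D4, with 3 to 9 over the 16 libraries. All 6 ParaHox and Cdx genes had H3K4me3 in D0 and in iPSCs, as did all 9 cofactors, and none of the 6 had H3K36me3 in either.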

How the data were processed

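ChIP-Seq libraries were aligned to mm9 with STAR and peaks were called with HOMER findPeaks in histone style, each library against an input and without pooling, as the submitters' processing notes, the methods and the file headers state. Tool versions are not given in the sources used here, and the 16 inputs have no file of their own. The deposited peak lists hold a signal (the authors' normalized tag count, scaled to 10 M tags), a ratio (fold over input, at least 2 for H3.3 and 4 for the modifications) and a p-value against input (limit 0.0001).

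A peak counted for a gene with an overlap of at least 1 bp, and the score of a gene was the tag count of each peak in proportion to the overlapped length. A change was called at 2-fold. Values were printed in every library for the gene of each cluster with the largest H3.3 score in D0, in iPSCs and on average, the 3 largest and 3 smallest H3K4me3 differences between D0 and iPSCs, and the 3 largest H3K36me3 scores in D0. One member enters the counts but is not reported on its own here. Other genes were named after their values were seen. Members, gene lists and rules were chosen with earlier results of these data known. The counting of covered bases, overlapping peaks and shared-out scores was tested on simulated peaks. Python 3.11.15, numpy 2.4.6, scipy 1.17.1 and matplotlib 3.10.9 were used. Alternatives were as many top peaks in each library as the smallest list of its mark and experiment had, peaks at or above the median score, a higher fold over input (4 for H3.3, 8 for the modifications), other rules for assigning peaks, other cluster boundaries and whole peak scores. Assignment by territory and leaving out each sorted day were added after seeing the data.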

Additional observations from a re-analysis of the deposited data

Results flagged for a closer look

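The number of Hox genes with an H3.3 peak, successful minus unsuccessful fraction, was 8 on day 6 and 6 on day 9, where cells were sorted by Thy-1, and -17 on day 12 and -7 on day 16, where they were sorted by SSEA-1. These values stand out because the sign turned between the pairs of days. The difference between the pairs of days was not tested, and the day and the surface marker used for the sort cannot be told apart. When each library was reduced to as many of its top peaks as the smallest one had the differences were 3, 5, -10 and 4, and with peaks at least 4-fold over input they were 1, -1, -14 and -9, so the signs on days 16 and 9 depend on the peaks used.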

How the results depend on the processing

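Of 66 alternative values, 44 stayed within 1.5 times of the value in the report or, for the route difference, on the same side of 0. When each library was reduced to as many of its top peaks as the smallest one had, H3.3 was found on 8 Hox genes in D0 and 3 in iPSCs, over 36.4 and 8.54 kb, H3K36me3 on 3 genes in D0 and 0 in iPSCs, and the mean route difference turned to 0.5 genes. With peaks at or above the median score, H3.3 was on 3 genes and 10.2 kb in iPSCs, and H3K36me3 on 4 genes in D0 and 0 in iPSCs. With the higher fold over input, H3.3 covered 39.4 kb in D0 and 6.54 kb on 5 genes in iPSCs, H3K4me3 was on 6 genes and 10.9 kb in iPSCs, H3K36me3 was on 3 genes in D0 and 0 in iPSCs, and the route difference was -5.75. In the start window H3K36me3 was on 1 gene in D0 and 0 in iPSCs, and by territory H3.3 was on 25 genes in D0. The route difference ranged from -6 to 2.33 when each day was left out, turning its sign without day 12. The causes were not tested. Whole peak scores moved 11 of 60 gene values. No pairing by replicate was possible because each group has 1 library and all samples carry the same replicate number, which leaves no replicates to pair. The route test pairs the fractions of a day. Depth and the share of the genome under peaks differed between libraries, and their part in the counts was not tested.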
